A study of Mus musculus with 47 samples.

Results

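The untreated mouse line in which SUZ12 carries an auxin-inducible degron was compared with the untagged line of the same background, before any auxin was added, in embryonic stem cells (ESC) and in neural progenitor cultures (NPC) made from them. Libraries were chosen by their labels alone: 12 of the 47 in the series, 3 for each line at each stage. Both lines were C57BL/6 and both carried Tir1, a plant auxin receptor through which auxin sends degron-tagged proteins to the proteasome, so the comparison holds the tag on SUZ12 and whatever else separates the lines. ESC were kept without serum in 100 U/mL LIF with 3 µM CHIR99021 and 1 µM PD0325901. NPC were made over 5 days, first 72 hours in 10 ng/mL bFGF, then 48 hours in 500 nM SAG, which activates Hedgehog signalling. The other groups drawn on are untreated MTF2 and JARID2 degron lines (3 libraries each per stage) and the SUZ12 and untagged lines kept in 50 µM auxin, ESC for 12 hours and NPC for all 5 days (3 libraries each, 2 for SUZ12 NPC), all with Tir1. How many clones each tagged line came from is not given in the sources used here.

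SUZ12 is a core subunit of Polycomb repressive complex 2 (PRC2), together with EED and a methyltransferase, EZH1 or EZH2. The complex methylates lysine 27 of histone H3 and keeps developmental regulators silent in stem cells and in the lineages that do not use them. MTF2 and JARID2 are accessory subunits that define alternative forms of the complex. A degron line before auxin is the baseline for every degradation experiment made with it.

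Recovered depth was 7.3 to 8.71 M reads in SUZ12-degron ESC and 5.27 to 5.5 M in untagged ESC, which do not overlap. In NPC it was 6.59 to 7.7 M and 6.34 to 8.03 M. ESC markers (Pou5f1, Nanog, Sox2, Zfp42, Esrrb, Klf4, Dppa3) summed to 3698 to 3771 TPM (transcript abundance scaled for length and library total) in degron ESC and 3753 to 3811 in untagged ESC, and to 353 to 384 over the 6 NPC libraries. NPC markers (Sox1, Pax6, Nes, Fabp7, Nkx6-1, Olig2, Foxa2, Hes5) summed to 1737 to 1892 TPM in degron NPC and 1654 to 1818 in untagged NPC. Both lines therefore carried the markers of their labelled stage, and neuron markers were also present in NPC, at 3508 to 3696 and 3611 to 3891 TPM. In these bulk samples, fewer cells of a type and less RNA per cell cannot be told apart.

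Suz12 RNA, from the tagged gene itself, was about 2-fold higher in the degron line at both stages (gene at chr11:79993106-80034123 on GRCm38, plus strand). In untagged ESC it stood at 148, 143 and 143 TPM, and in degron ESC at 299, 251 and 304 TPM. The degron libraries were all above the untagged ones, with a difference of 0.97 ± 0.09 in log2(TPM + 0.5), the scale of every log2 difference here (SE, n = 3 and 3; adjusted p 1.88e-06, limma). A gene is called where that p, adjusted over all tested genes, is under 0.05. In NPC the untagged libraries had 38.0, 35.8 and 36.9 TPM and the degron libraries 76.5, 79.5 and 77.5, again without overlap, a log2 difference of 1.07 ± 0.10 (adjusted p 2.43e-06). The level fell between the stages in both lines and the line difference did not differ detectably between them (log2 -0.10, adjusted p 0.862). Suz12 was also above the other tagged lines, by 1.33 (MTF2) and 1.08 (JARID2) on the log2 scale in ESC and by 1.06 and 1.12 in NPC, each with an adjusted p of at most 9.11e-07; these contrasts use the same degron libraries, and call 16.6% and 6.97% of all tested genes in ESC and 7.71% and 26.3% in NPC. In the ESC libraries with auxin, which enter none of the means above but share the fit's estimate of spread, Suz12 was at 313 TPM in the degron line and 163 in the untagged line (log2 0.94, adjusted p 1.33e-06). RNA was measured, so nothing here gives the amount of SUZ12 protein.

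The 250 bases before the RefSeq start of Suz12 (chr11:79992856-79993105, GRCm38.p6, plus strand) are shown because this is the tagged gene, and capitals mark each CG. The stretch holds 37 CG, against a median of 6 over the 32851 RefSeq promoter windows cut to the same length, 97.8% of which hold fewer.
Suz12: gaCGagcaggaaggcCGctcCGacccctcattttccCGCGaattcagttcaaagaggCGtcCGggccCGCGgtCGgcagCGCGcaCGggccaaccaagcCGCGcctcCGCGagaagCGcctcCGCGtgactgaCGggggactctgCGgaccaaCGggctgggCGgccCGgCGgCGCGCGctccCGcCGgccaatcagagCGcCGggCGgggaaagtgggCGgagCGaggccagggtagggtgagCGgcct

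Genes within 1 Mb of Suz12 were not called with it. Of the other tested genes there, 0 of 23 were called in ESC and 0 of 22 in NPC by limma, where 1.65% and 0.814% of all tested genes were. With shares that low, 0 calls among so few genes says little about the neighbourhood. Only 4 of the 23 differences were above 0 in ESC (median -0.10, beside -0.03 for all tested genes). In NPC 18 of the 22 were (median 0.09, beside 0.05). Utp6, a ribosome biogenesis factor on one side, differed by -0.05 ± 0.06 in ESC and 0.00 ± 0.08 in NPC on the log2 scale. Crlf3, a cytokine receptor-like gene on the other side, differed by -0.01 ± 0.07 and 0.09 ± 0.11. The gene model Gm30875, at -20 kb, differed by -0.43 ± 0.17 and 0.41 ± 0.32 (limma adjusted p 0.235 and 0.777). Over 5 Mb the counts were 0 of 133 and 2 of 144. The 2 called in NPC were Lgals9 and Taf15, at -1030 kb and 3480 kb from Suz12. Lgals9, just outside the 1 Mb window, rose by 0.91 ± 0.19 and Taf15 by 0.25 ± 0.06 (limma adjusted p 0.0219 and 0.0268). Gm26563, annotated on the strand opposite to Suz12, shares exonic bases with it; the libraries keep strand, but whether the counting used it is not given in the sources used here.

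**Figure D1:**
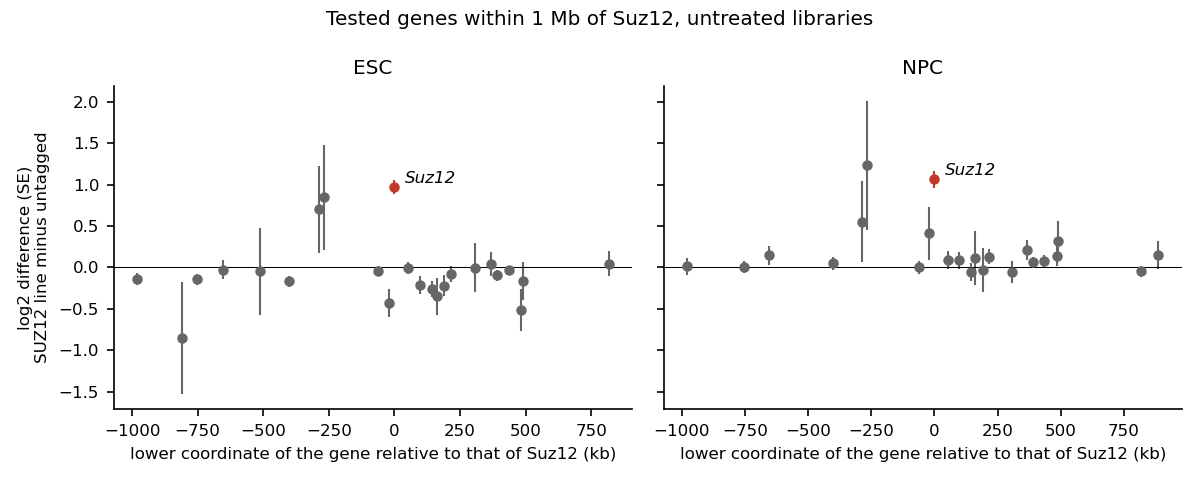
Log2 difference (SUZ12-degron line minus untagged, untreated, with SE) of each tested gene within 1 Mb of Suz12, by the position of its lower coordinate relative to that of Suz12 in kb, for ESC (left) and NPC (right). Suz12 (red) stands at 0.97 and 1.07, and the grey genes with narrow error bars lie near 0; the 2 further high points, Gm11205 and Mir365-2, have few reads and were not called.

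Chromosome medians lay close together in the 2 lines. The median over the tested genes of a chromosome, per library, differed between the lines by -0.06 to -0.01 on the log2 scale in ESC and by 0.01 to 0.06 in NPC over chromosomes 1 to 19. The statistic tested was the mean of the ESC and NPC differences, so differences of opposite sign at the 2 stages offset each other. The signs were opposite on every one of chromosomes 1 to 19. The smallest exact permutation p of this mean was 0.19, for chromosome 6 (two-sided, n = 3 per group). It came from 400 arrangements of the line labels within stages, and every adjusted p was 0.965. The smallest p these arrangements can give is 0.005, or 0.095 when a single chromosome of the 19 is adjusted, so the adjusted test could not pass 0.05 for 1 chromosome and says nothing on the absence of a change. For chromosome 11, which carries Suz12, the differences were -0.01 and 0.06 (exact permutation p = 0.22 for their mean). The differences of all chromosomes shared the sign of the median over all genes at that stage, -0.03 in ESC and 0.05 in NPC.

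**Figure D2:**
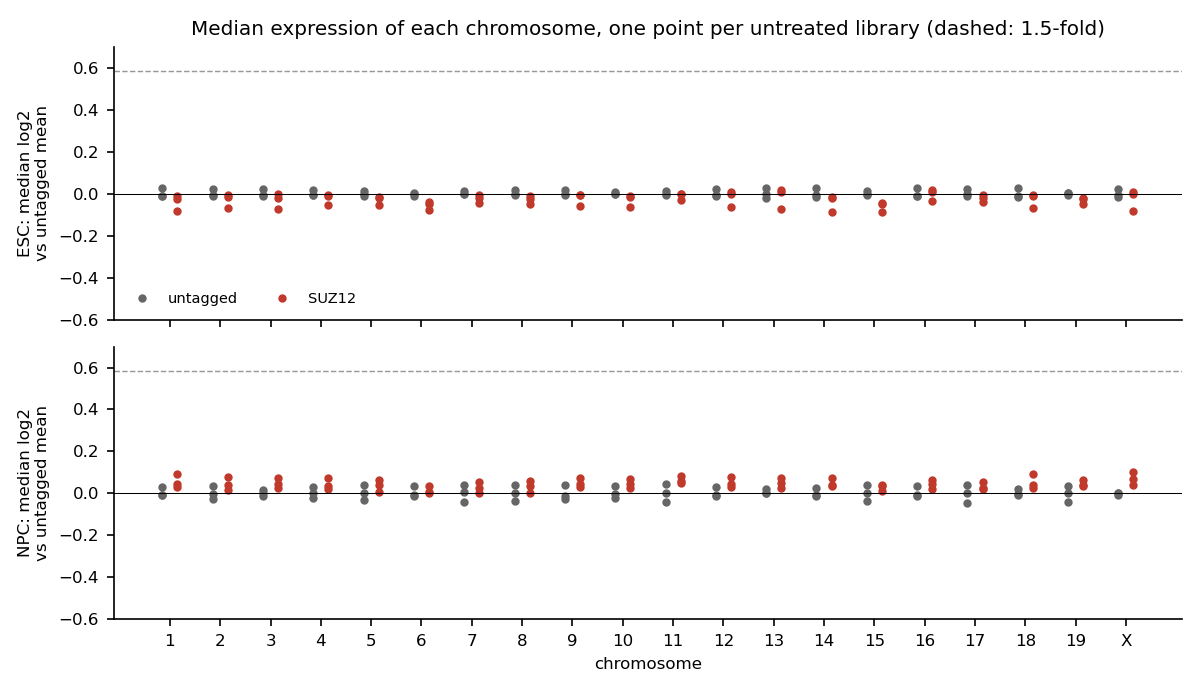
Median over the tested genes of each chromosome of log2(TPM + 0.5) minus the mean of the untagged libraries of the stage, with 1 point per untreated library, for ESC (top) and NPC (bottom). All points lie between -0.09 and 0.10, far from the dashed line that marks a 1.5-fold gain.

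Few genes were called between the lines at either stage. In ESC 249 of 15104 tested genes were called (1.65%), 71 higher (0.47%) and 178 lower (1.18%) in the degron line, and 14 of them differed at least 2-fold. In NPC 134 of 16469 were called (0.814%), 110 higher (0.668%) and 24 lower (0.146%), and 43 at least 2-fold. On autosomes alone the counts were 232 of 13897 in ESC (1.67%) and 115 of 15099 in NPC (0.762%). The split by direction depends on scaling: with median-of-ratios scaling it was 97 higher and 112 lower in ESC, and 93 higher and 38 lower in NPC. Every library bears on the ESC count, which was 113, 82 and 115 without degron replicate 1, 2 or 3 and 67, 106 and 147 without untagged replicate 1, 2 or 3. In NPC it was 81 and 83 without degron replicate 1 or 2 and 89 and 83 without untagged replicate 2 or 3. Of the genes named below, the calls of Gpatch2, Meg3, Gbx2, Olig1, Vax2, Epop, Rybp, Dnmt1, Fdft1, Trappc9, Zfp64 and Usp17lc in ESC and of Abi2 and Srxn1 in NPC were lost whichever of the 6 libraries of the stage was left out. Those of Eno1, Lars2, Tex19.1, Cbx2, Gnas, Igf2r, Peg3, Dhcr7, Insig1, Hmgcs1, Dnmt3a, Id3, Smad3, Vim, Anapc11, Pou6f1 and Fam83g in ESC were lost without at least 1 of them. In NPC the same held for Eno1, Lars2, Efhc2, Cbx7, Foxc1, Tfap2c, Esx1, Gjb5, Nanog, Pou5f1, Tdgf1, Plagl1, Zrsr1, Acta2, Lss, Nudt17 and Fam83g. On the X chromosome 9 of 527 genes were called in ESC (1.71%) and 16 of 590 in NPC (2.71%), all 16 of the latter higher.

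Only 10 autosomal genes of 12848 tested at both stages were called at both with the same sign (0.0778%). The 3 that were higher are Suz12, Gpatch2 and Tex19.1, and the 7 that were lower include Mest, Meg3, Rian, Abi2, Lars2 and Eno1. The comparisons at the 2 stages share no library. On the X chromosome, Efhc2 was higher at both stages, at 1.01 ± 0.18 in ESC and 1.41 ± 0.30 in NPC on the log2 scale (adjusted p 0.00574 and 0.02).

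**Figure D3:**
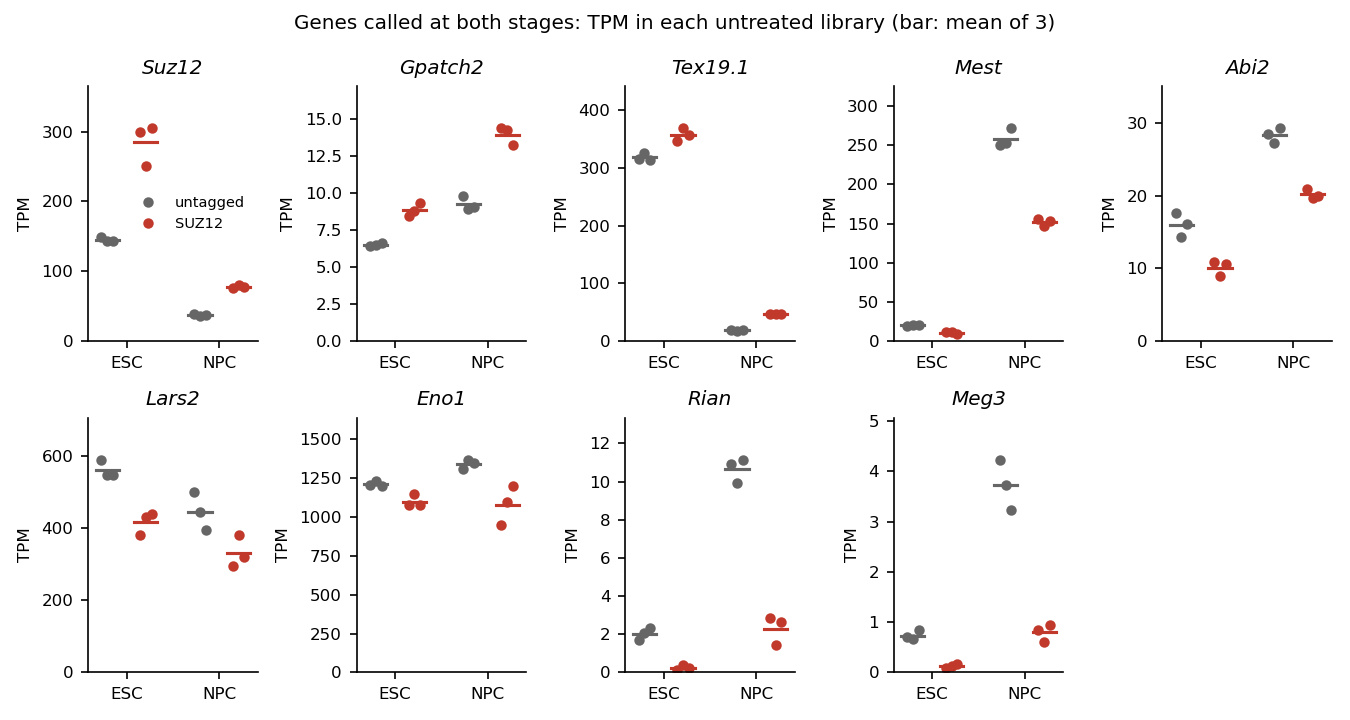
TPM of 9 autosomal genes called at both stages in each of the 12 untreated libraries (grey untagged, red SUZ12-degron; bars are means of 3; each axis starts at 0). The points of the lines do not overlap at either stage for any of the 9 genes, and Suz12 has the largest rise in ESC, from 145 to 285 TPM.

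Imprinted genes, which are expressed from the maternal or the paternal copy alone, made up 3 of the 7 genes that were lower at both stages. Those 7 came from 12848 autosomal genes tested at both stages, and the imprinted list had 39 tested members in ESC and 50 in NPC. Meg3 and Rian are long noncoding RNAs of the maternally expressed part of the Dlk1-Dio3 cluster on chromosome 12 (Meg3 at chr12:109541001-109571726, Rian at chr12:109603940-109661716, both plus strand). Rian had 10.9, 9.91 and 11.1 TPM in untagged NPC and 2.83, 1.41 and 2.64 in degron NPC. The groups were far apart, with a log2 difference of -2.04 ± 0.18 (adjusted p 6.79e-07). In ESC its values were 1.67, 2.04 and 2.34 against 0.141, 0.377 and 0.252 TPM (-1.74 ± 0.26, adjusted p 0.00118), from 52 reads in the 3 untagged and 10 in the 3 degron libraries. Meg3 followed the same order at both stages. It had 4.22, 3.72 and 3.23 TPM in untagged NPC and 0.836, 0.601 and 0.948 in degron NPC (-1.71 ± 0.16, adjusted p 1.78e-06). Its ESC values were 0.695, 0.658 and 0.841 against 0.0782, 0.125 and 0.163 TPM (-0.98 ± 0.22, adjusted p 0.0231), from 68 and 17 reads. Both RNAs hold or overlap small RNA genes and Meg3 has an antisense partner, so their reads may include those of other transcripts.

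Other members of the same cluster did not pass the test. Dlk1, a paternally expressed Notch-pathway ligand, had 16.8 ± 1.76 TPM in untagged NPC and 22.0 ± 3.12 in degron NPC (SD, n = 3 and 3; adjusted p 0.448). Mirg, a further noncoding RNA downstream of Rian, had 2.24, 2.30 and 2.11 TPM against 0.521, 0.898 and 1.35 in NPC (-0.97 ± 0.47, adjusted p 0.521). Its groups did not overlap, but they rest on 24 and 10 reads. Dio3, at the far end of the cluster, was not called at either stage (adjusted p 0.305 and 0.64).

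Mest, a paternally expressed gene of the alpha/beta hydrolase family, is on chromosome 6 (chr6:30723547-30748465, plus strand). In untagged NPC it had 250.2, 253 and 272 TPM, and in degron NPC 155, 147 and 153 TPM, with no overlap (-0.76 ± 0.05, adjusted p 4.59e-08). In ESC the values were 19, 20.8 and 20.3 against 11.1, 11.8 and 8.54 TPM (-0.91 ± 0.09, adjusted p 8.31e-06). Copg2, which overlaps its end on the other strand, did not pass the test (-0.08 ± 0.08 and -0.10 ± 0.07). The degron line was also below the other tagged lines in Mest at both stages: the means of the MTF2 line were 50.3 TPM in ESC and 257 in NPC, and those of the JARID2 line 23.5 and 407.

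The 250 bases before a RefSeq start of Meg3 (chr12:109540746-109540995, the first of 2 starts listed) and of Mest (chr6:30737800-30738049, the second of 3) are shown because these imprinted genes differed at both stages; both are on the plus strand and capitals mark each CG. They hold 10 and 14 CG, more than 62.2% and 70.6% of all windows. No methylation was measured in these libraries.
Meg3: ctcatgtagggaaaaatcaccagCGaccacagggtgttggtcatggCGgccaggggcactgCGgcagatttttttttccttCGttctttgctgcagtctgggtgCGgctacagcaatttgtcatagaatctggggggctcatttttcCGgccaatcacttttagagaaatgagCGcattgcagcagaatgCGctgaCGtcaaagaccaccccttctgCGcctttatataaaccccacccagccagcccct
Mest: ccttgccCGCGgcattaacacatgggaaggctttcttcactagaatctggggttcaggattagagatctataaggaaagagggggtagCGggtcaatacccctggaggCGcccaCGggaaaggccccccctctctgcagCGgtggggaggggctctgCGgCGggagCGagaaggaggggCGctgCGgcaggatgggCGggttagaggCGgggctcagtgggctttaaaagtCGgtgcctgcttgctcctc

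Calls in the wider imprinted list were lower in ESC and mostly higher in NPC. In ESC 10 of 39 tested members were called, all lower (1.18% of all tested genes were called lower), with a list median of -0.10 beside -0.03 for all tested genes. They were Mest, Meg3, Rian, Peg10, Gnas, Igf2r, Impact, Peg3, Trappc9 and Zfp64. Peg10, a retrotransposon-derived gene needed for the placenta, had 8.36, 9.87 and 8.55 TPM in untagged ESC and 3.15, 2.88 and 3.62 in degron ESC (-1.34 ± 0.13, adjusted p 3.66e-06). Apart from the first 4 of these genes, the falls were modest, between -0.21 for Zfp64 and -0.35 for Trappc9. Without 1 ESC library the count of lower members was between 4 and 6, and in a fit to the 2 groups alone it was 3.

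In NPC 6 of 50 tested imprinted genes were higher (H19, Igf2, Phlda2, Plagl1, Sfmbt2, Zrsr1) and 3 were lower (Meg3, Mest, Rian), beside 0.668% and 0.146% of all tested genes, with a median of 0.08 beside 0.05 for all genes. Igf2, a fetal growth factor, had 51.4, 51.2 and 47 TPM in untagged and 95.8, 93.0 and 98.9 in degron NPC (0.94 ± 0.08, adjusted p 6.79e-07). Its neighbour H19, a noncoding RNA expressed from the other parental copy, had 215, 209 and 210.2 against 331, 354 and 338 TPM (0.69 ± 0.06, adjusted p 4.32e-07). Both neighbours were thus higher in every degron NPC library. Phlda2, a restraint on placental growth, had 11.0, 12.1 and 11.2 against 28.4, 27.3 and 24.3 TPM (1.18 ± 0.13, adjusted p 1.04e-05).

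Abi2, an adaptor of the WAVE actin-regulating complex (chr1:60409619-60481158, plus strand), had 17.6, 14.4 and 16.2 TPM in untagged ESC and 10.9, 8.95 and 10.5 in degron ESC (-0.64 ± 0.10, adjusted p 0.00175). Its NPC values were 28.5, 27.3 and 29.3 against 20.9, 19.8 and 20 TPM (-0.48 ± 0.10, adjusted p 0.02). The groups did not overlap at either stage, but the MTF2 line had like levels, 9.98 TPM in ESC and 19 in NPC, and the degron line differed from it by 0.02 and 0.10 (adjusted p 0.946 and 0.636).

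Lars2, the mitochondrial leucyl-tRNA synthetase (chr9:123366927-123462666), had 588, 547 and 547 TPM in untagged and 382, 431 and 438 in degron ESC (-0.43 ± 0.09, adjusted p 0.0201). In NPC it had 498, 443 and 393 against 293, 381 and 321 TPM (-0.42 ± 0.09, adjusted p 0.0293), with replicates more spread than in ESC. Eno1, a glycolytic enolase with the near-identical copy Eno1b, had 1212 ± 18.6 against 1099 ± 39.9 TPM in ESC and 1341 ± 30.7 against 1080 ± 128 in NPC (SD, n = 3 and 3; -0.14 ± 0.03 and -0.32 ± 0.07, adjusted p 0.0201 and 0.0323). How reads of the 2 copies were divided is not given. Eno1 was no longer called at both stages with median-of-ratios scaling.

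Gpatch2, a nuclear G-patch protein (chr1:187215508-187351704, plus strand), was higher at both stages. It had 6.44, 6.47 and 6.61 TPM in untagged and 8.44, 8.81 and 9.35 in degron ESC (0.42 ± 0.11, adjusted p 0.0464), and 9.84, 8.94 and 9.07 against 14.4, 14.3 and 13.3 TPM in NPC (0.57 ± 0.10, adjusted p 0.00495). The MTF2 and JARID2 lines stayed near the untagged level, at 6.34 and 6.38 TPM in ESC and 9.50 and 9.03 in NPC.

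Tex19.1, a germline and placental gene also active in ESC (chr11:121146143-121148319, plus strand), had a much larger log2 difference between the lines after differentiation. It had 316, 325 and 314 against 347, 368 and 357 TPM in ESC (0.17 ± 0.03, adjusted p 0.0131). NPC kept 19.5, 17.0 and 19.3 TPM in the untagged line and 47.3, 47.4 and 46.2 in the degron line (1.31 ± 0.11, adjusted p 4.32e-07). The difference between the stages passed the test (-1.15, adjusted p 2.27e-08). In NPC the MTF2 line had 37.7 TPM and the JARID2 line 26.2, and the degron line with 5 days of auxin had 274.

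The ESC libraries with auxin give the same 2 lines in other samples, with 12 hours of SUZ12 degradation as part of the contrast. Both contrasts come from 1 fit and share its estimate of spread. There 4.59% of all genes were called, and 8 of the 9 genes described here as called at both stages were called with the sign they had untreated. The log2 differences were 0.94 for Suz12, 0.64 for Gpatch2 and 0.26 for Tex19.1, and -1.43 for Rian, -0.44 for Abi2, -0.41 for Mest, -0.38 for Lars2 and -0.16 for Eno1 (adjusted p at most 0.0213). Meg3 kept its sign but missed the threshold (-0.65, adjusted p 0.0989).

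Of the 6 core PRC2 genes tested, Suz12 alone was called at either stage. Ezh2, the main methyltransferase, had 145, 148 and 148 TPM in untagged and 141, 129 and 140 in degron ESC (-0.11 ± 0.06, adjusted p 0.43), and differed by 0.02 ± 0.06 in NPC. Eed, the subunit that binds the methylated histone, differed by -0.03 ± 0.08 in ESC and 0.25 ± 0.06 in NPC (adjusted p 0.937 and 0.0797). Mtf2 and Jarid2 were not called, with differences of -0.15 and 0.07 in ESC and 0.12 and -0.01 in NPC. Among 7 accessory genes, Epop, listed under its older symbol E130012A19Rik, was higher in ESC (0.17 ± 0.04, adjusted p 0.0401; 0.47% of all tested genes were called higher) and 0 were called in NPC.

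In the sister complex PRC1, 2 of 24 tested genes were lower in ESC and 1 was higher in NPC, beside 1.18% and 0.668% of all tested genes. Cbx2, a chromodomain subunit that reads the PRC2 mark, had 33.6, 33.6 and 31.5 TPM in untagged and 24.6, 27.4 and 25.7 in degron ESC (-0.34 ± 0.07, adjusted p 0.0125). Rybp, a subunit of the variant complexes, fell from 77.6 ± 2.89 to 67.4 ± 2.52 TPM (SD, n = 3 and 3; adjusted p 0.0475). Cbx7, the chromodomain subunit typical of stem cells, had 106, 104 and 88.2 against 137, 131 and 124 TPM in NPC (0.40 ± 0.08, adjusted p 0.0172); Apobec3 shares exonic bases on its other strand. Its line difference was not the same at the 2 stages (-0.56, adjusted p 0.000704).

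Few of the listed targets of Polycomb repression were called in the untreated degron line. Of 84 tested developmental regulators of this kind in ESC, 3 were higher (Olig2, Olig1, Gbx2) and 1 was lower (Vax2). Of all tested genes 0.47% were called higher there and 1.18% lower (1.65% in either direction). In NPC 2 of 135 were called, Foxc1 and Tfap2c, both higher. There 0.814% of all tested genes were called, and 0.668% were called higher. The list median was -0.08 in ESC, beside -0.03 for all tested genes, with 52 of the 84 differences below 0. In NPC it was 0.07, beside 0.05, with 84 of the 135 above 0. Olig2, a bHLH factor of motor neuron and oligodendrocyte progenitors, had 39.1, 37.8 and 32.5 TPM in untagged and 47.4, 54.3 and 52.8 in degron ESC (0.49 ± 0.08, adjusted p 0.00325). In NPC it had 47.2, 43.0 and 39.8 against 37.6, 34.0 and 35.9 TPM, which did not pass (-0.27 ± 0.08, adjusted p 0.158), although the groups did not overlap. The stage difference, which tests whether the line difference differs between the stages and not its sign, did pass (0.76, adjusted p 0.000129).

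Hox genes, classic Polycomb targets that set position along the body axis, were low in ESC and lower in the degron line in sum. Their summed level was 23.2 to 32.1 TPM in untagged and 13.6 to 17.9 in degron ESC, without overlap, but 0 of 12 tested genes were called by limma (5 at an unadjusted p under 0.05; median -0.53, beside -0.03 for all tested genes, of which 1.18% were called lower). In NPC the sums were 343 to 364 and 277 to 291 TPM, and 1 of 29 genes was called lower (8 at an unadjusted p under 0.05; median -0.25, beside 0.05 for all tested genes, of which 0.146% were called lower). That gene, Hoxb8, had 8.02, 8.50 and 9.42 TPM in untagged and 3.44, 2.64 and 3.57 in degron NPC (-1.30 ± 0.19, adjusted p 0.000647). In the untreated JARID2 line the sum was 212 to 253 TPM and in the MTF2 line 307 to 326.

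Of 16 tested genes of general pluripotency, 3 were lower in degron NPC, where little of their expression is left, and 1 was higher in degron ESC, beside 0.146% and 0.47% of all tested genes. Pou5f1 (OCT4) had 1732 ± 46.7 and 1785 ± 19.7 TPM in untagged and degron ESC (SD, n = 3 and 3; adjusted p 0.527). In NPC it had 12.8, 10.4 and 10.6 against 8.21, 8.63 and 6.81 TPM, lower in every degron library (-0.49 ± 0.10, adjusted p 0.0233). Nanog, its partner factor, had 3.79, 3.52 and 3.18 against 1.10, 2.78 and 1.25 TPM (-0.93 ± 0.21, adjusted p 0.0323). Tdgf1, the NODAL co-receptor, had 2.17, 2.33 and 1.5 against 0.324, 0.186 and 1.18 TPM (-1.33 ± 0.27, adjusted p 0.0172). The list median in NPC was 0.00, beside 0.05 for all tested genes. Lefty1, a NODAL antagonist, had 7.47, 5.36 and 5.85 against 1.69, 2.18 and 2.19 TPM (-1.41 ± 0.14, adjusted p 4.23e-06). The MTF2 and JARID2 lines had more of it in NPC than either line, 15.5 and 14.3 TPM. The gene called in ESC was Utf1, a chromatin-associated factor of undifferentiated cells, which had 388, 378 and 377 against 489.8, 499 and 489.6 TPM (0.37 ± 0.04, adjusted p 1.89e-05).

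Several genes of the trophectoderm, the outer layer of the early embryo, and of simple epithelia rose in degron NPC. Of 20 tested genes in this list 8 were higher and 0 lower, beside 0.668% of all tested genes called higher, and the list median was 0.67, beside 0.05 for all. The 8 were Krt7, Krt8, Krt18 and Tfap2c on autosomes (4 of 16 tested there) and Esx1, Plac1, Rhox6 and Rhox9 on the X chromosome. Krt8, a keratin of simple epithelia, had 43.8, 45.8 and 42.7 TPM in untagged and 91.9, 97.5 and 85.3 in degron NPC (1.04 ± 0.09, adjusted p 6.79e-07). Its filament partner Krt18 had 46.3, 52.4 and 56.2 against 83.6, 99.0 and 101 TPM (0.87 ± 0.10, adjusted p 4.87e-05). Krt7, a further simple-epithelial keratin, had 18.2, 18.9 and 21.2 against 41.4, 41.7 and 45.4 TPM (1.12 ± 0.13, adjusted p 1.6e-05). All 3 keratins were above the untagged range in every degron library.

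Tfap2c, a transcription factor of trophoblast and germ cells, had 5.67, 7.65 and 4.74 against 10.1, 9.85 and 8.98 TPM in NPC (0.66 ± 0.15, adjusted p 0.0325). Plac1, a placental gene on the X chromosome, had 4.54, 7.45 and 4.61 against 23.5, 19.8 and 19.1 TPM (1.85 ± 0.22, adjusted p 4.87e-05). Rhox6 and Rhox9, placental homeobox genes that are close copies of each other, rose by 1.29 ± 0.13 and 1.27 ± 0.12 (adjusted p 7.9e-06 and 1.99e-06). Cdx2, Gata3 and Hand1, transcription factors of this lineage, did not pass the test. Cdx2 had 0.755, 1.39 and 1.09 against 0.315, 2.36 and 0.654 TPM, Gata3 differed by 0.15 ± 0.16 (adjusted p 0.856), and Hand1 had 7.68, 10.8 and 7.21 against 16.6, 21.7 and 16.3 TPM (adjusted p 0.0536).

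Other epithelial and placental genes outside the list showed like values; they were chosen after their values were seen. Krt19 had 35.0, 40.9 and 35.4 TPM in untagged and 86.5, 79.2 and 83.3 in degron NPC (1.15 ± 0.10). Gjb5, a gap junction protein of epithelia, rose by 0.78 ± 0.16 and the placental cadherin gene Cdh3 by 1.01 ± 0.18 (adjusted p 0.0149 and 0.00495).

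In ESC the same list had 0 of 17 tested genes higher and 1 lower, Peg10, beside 0.47% and 1.18% of all tested genes, with a median of -0.32 beside -0.03 for all. The 3 keratins were each lower on average there, by -0.45 to -0.55, without passing the test (adjusted p at least 0.173). The stage difference passed for Krt7, Krt8 and Krt18 (-1.58, -1.58 and -1.41; adjusted p 0.00648, 2.29e-05 and 0.00078). Summed over the list, degron ESC had 345 to 353 TPM and untagged ESC 406 to 429, while degron NPC had 726 to 758 and untagged NPC 424 to 460.

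Fibroblast markers (Col1a1, Col1a2, Col3a1, Thy1, Postn) were also higher in degron NPC, at 26.7 to 29.1 TPM in degron and 21.9 to 23 in untagged libraries, with all 5 detected. In the wider fibroblast list 1 of 16 genes, Acta2, was called higher (0.668% of all tested genes were). A difference above 0 was seen in 15 of the 16, where 36.4% of all autosomal genes tested at both stages were below 0. Endoderm markers were at 0.898 to 2.09 against 1.03 to 1.48 TPM with Afp at 0, and mesoderm markers at 1.23 to 2.12 against 0.76 to 1.94 TPM. The wider mesoderm list, which shares collagen genes, Acta2 and Hand1 with the other lists, summed to 365 to 420 TPM in degron and 310 to 313 in untagged NPC, without overlap. Of its 24 tested genes 1 was called higher (Acta2), 11 had an unadjusted p under 0.05 and 18 had a difference above 0, with a median of 0.29. The wider endoderm list, which holds Krt8 and Krt18, summed to 1084 to 1119 against 955 to 989 TPM, also without overlap. Of its 23 tested genes those 2 keratins were called, and 17 had a difference above 0, with a median of 0.09. The other untreated tagged lines had higher sums in NPC than the SUZ12-degron line. For mesoderm they were 465 to 497 TPM (MTF2) and 529 to 673 (JARID2), and for endoderm 1256 to 1329 and 1714 to 1975. The wider fibroblast list summed to 478 to 509 and 616 to 794 TPM in these lines. It summed to 298 to 365 in degron and 251 to 274 in untagged NPC. The part of any admixed cell type in the keratin result was not tested. Of neural progenitor genes 0 of 44 were called in NPC by limma, beside 0.814% of all tested genes (4 at an unadjusted p under 0.05; median 0.01), and 0 of 31 neuron genes were (5 at an unadjusted p under 0.05; median 0.03).

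**Figure D4:**
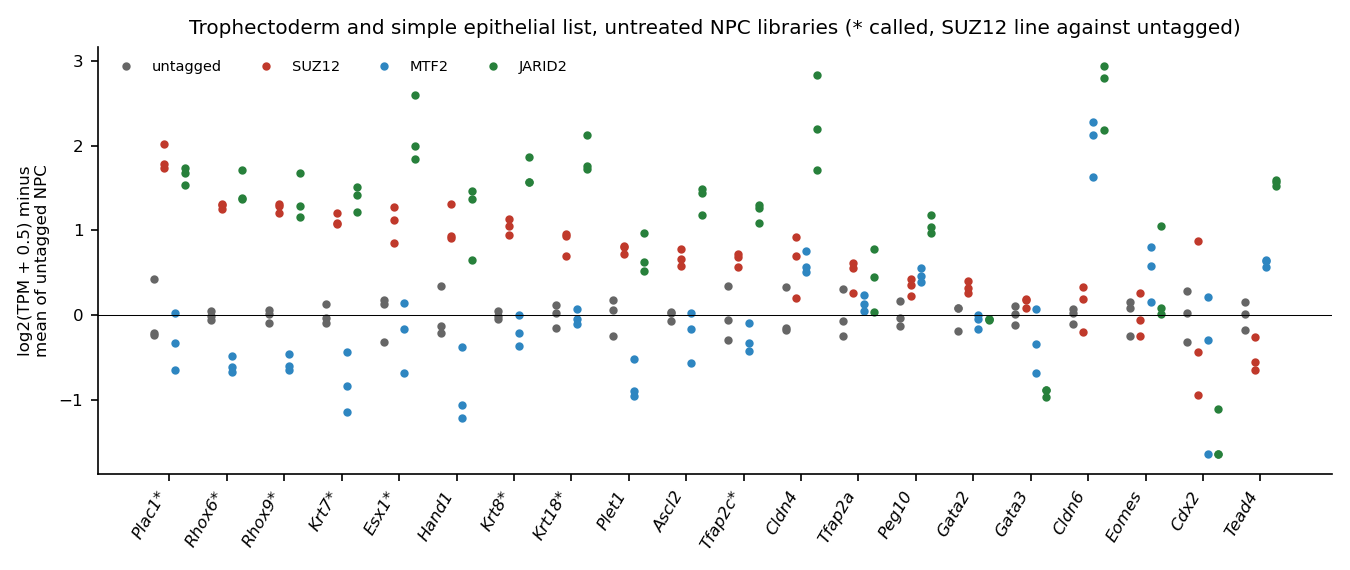
Log2(TPM + 0.5) minus the mean of the untagged libraries for the 20 tested trophectoderm and simple epithelial genes in untreated NPC, with 1 point per library and line, ordered by the difference between the SUZ12-degron and untagged lines; asterisks mark the 8 called genes. The red SUZ12-degron points lie above the grey untagged points for all 8, the blue MTF2 points lie near or below 0 for them, and the green JARID2 points lie above 0.

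The other untreated tagged lines differed in these genes. Krt8 averaged 38.9 TPM in MTF2 NPC and 142 in JARID2 NPC, beside 44.1 in untagged and 91.5 in SUZ12-degron NPC. The degron line exceeded the MTF2 line (1.23, adjusted p 1.1e-08) and was below the JARID2 line (-0.63, adjusted p 2.47e-05). Krt18 had 50.6 and 191 TPM in the MTF2 and JARID2 lines. Summed over the list, MTF2 NPC had 466 to 499 TPM and JARID2 NPC 1028 to 1256.5. These contrasts share the SUZ12-degron libraries. With 5 days of auxin, the degron line reached 385 TPM for Krt8 and 2579 to 2744 TPM for the list sum, against 47.6 TPM for Krt8 in untagged NPC with auxin; treatment and line are both part of that gap.

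The bases before the RefSeq starts of Krt7 (chr15:101412153-101412401) and Krt18 (chr15:102027966-102028179, both GRCm38.p6, plus strand) are shown up to the first annotated exon of a protein-coding transcript, since these keratin genes and Tfap2c were all called higher. Capitals mark GCCNNNGGC, the palindrome bound by TFAP2 factors, searched on both strands (it reads the same on each). Krt7 holds 2 matches in 249 bases and Krt18 holds 1 in 214, and 13.6% and 11.5% of all windows of the same lengths hold at least 1. The 110 bases of the Krt8 window that lie outside its exons hold 0 matches. A match is only a description of the letters.
Krt7: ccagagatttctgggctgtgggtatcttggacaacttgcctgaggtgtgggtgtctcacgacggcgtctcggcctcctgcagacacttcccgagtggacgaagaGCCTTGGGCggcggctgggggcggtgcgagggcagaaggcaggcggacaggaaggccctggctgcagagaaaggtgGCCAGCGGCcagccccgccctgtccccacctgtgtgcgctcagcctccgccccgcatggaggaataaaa
Krt18: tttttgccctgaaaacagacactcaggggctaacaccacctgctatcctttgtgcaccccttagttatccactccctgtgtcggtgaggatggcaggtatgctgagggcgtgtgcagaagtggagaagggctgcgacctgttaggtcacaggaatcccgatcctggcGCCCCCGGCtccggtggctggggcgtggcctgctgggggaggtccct

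More genes of sterol synthesis were lower than higher in degron ESC. Of 27 tested genes of cholesterol synthesis and its control, 5 were lower (Dhcr7, Fdft1, Insig1 and Mvd among them) and 1 was higher (Hmgcs1), beside 1.18% and 0.47% of all tested genes. The median was -0.12, beside -0.03 for all tested genes. Hmgcs1, an early synthase of the pathway, had 189, 189 and 192 TPM in untagged and 223, 209 and 228 in degron ESC (0.21 ± 0.04, adjusted p 0.00946). With median-of-ratios scaling 2 of the lower calls were left, and in a fit to the 2 groups alone 2. In NPC 1 of 27 was called, Lss, lower (-0.26 ± 0.06, adjusted p 0.0219), with a list median of -0.11 beside 0.05; 0.146% of all tested genes were called lower there.

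Further small differences were seen in ESC. Asns, asparagine synthetase, had 764, 783 and 769.9 TPM in untagged and 626, 618 and 647 in degron ESC (-0.29 ± 0.03, adjusted p 3.75e-06), 1 of 2 lower genes of 22 in the amino acid and unfolded protein stress list, beside 1.18% of all tested genes. Dnmt3a, a de novo DNA methyltransferase, rose from 31.4 ± 1.06 to 38.7 ± 1.55 TPM (SD, n = 3 and 3; adjusted p 0.00946) and Dnmt1, the maintenance enzyme, fell from 184 ± 1.97 to 166 ± 5.15 (adjusted p 0.0487). Id3, a target of BMP signalling, had 76.0, 74.1 and 74.7 against 95.4, 95.9 and 85.1 TPM (0.29 ± 0.06, adjusted p 0.0146). Smad3 and Bhlhe40 fell by 0.60 ± 0.14 and 0.92 ± 0.14 (adjusted p 0.0279 and 0.00118). A list of two-cell-stage genes had 1 of 19 called higher (0.47% of all tested genes were), Usp17lc, from 10 reads in untagged and 49 in degron libraries, and 18 of 19 differences above 0. Usp17lc has close copies, and how their reads were divided is not given.

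The line difference itself changed between the stages for 153 of 17760 genes (0.861%), 16 more positive in ESC and 137 more positive in NPC. With median-of-ratios scaling these were 31 and 88. Of 59 autosomal genes higher in ESC and tested in NPC, 37 had the same sign there (62.7%), and of 168 lower in ESC 87 did (51.8%), while 36.4% of all autosomal genes tested at both stages were below 0 in NPC. Of 73 genes higher in NPC and tested in ESC, 21 had the same sign (28.8%), while 59.4% of all autosomal genes tested at both stages were below 0 in ESC. Of 22 lower in NPC, 18 had the same sign.

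Called genes with opposite signs at the 2 stages numbered 4, all lower in degron ESC and higher in degron NPC: Tagln2, Ass1, Srxn1 and Fam83g. Tagln2, an actin-binding protein, had 121, 121 and 121 TPM in untagged and 81.6, 83.6 and 79.9 in degron ESC, and 52.5, 53 and 57.7 against 72.5, 80.5 and 81.2 TPM in NPC. The order of the lines was reversed with no overlap at either stage (stage difference -1.08, adjusted p 5.6e-10). Ass1, argininosuccinate synthase, had 480.3, 488 and 473 against 389, 411 and 384 TPM in ESC and 12.3, 8.71 and 9.35 against 19.3, 19.6 and 19.8 TPM in NPC (stage difference -1.21, adjusted p 1.72e-06). Srxn1, a peroxiredoxin reductase, differed by -0.42 ± 0.06 and 0.36 ± 0.08.

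**Figure D5:**
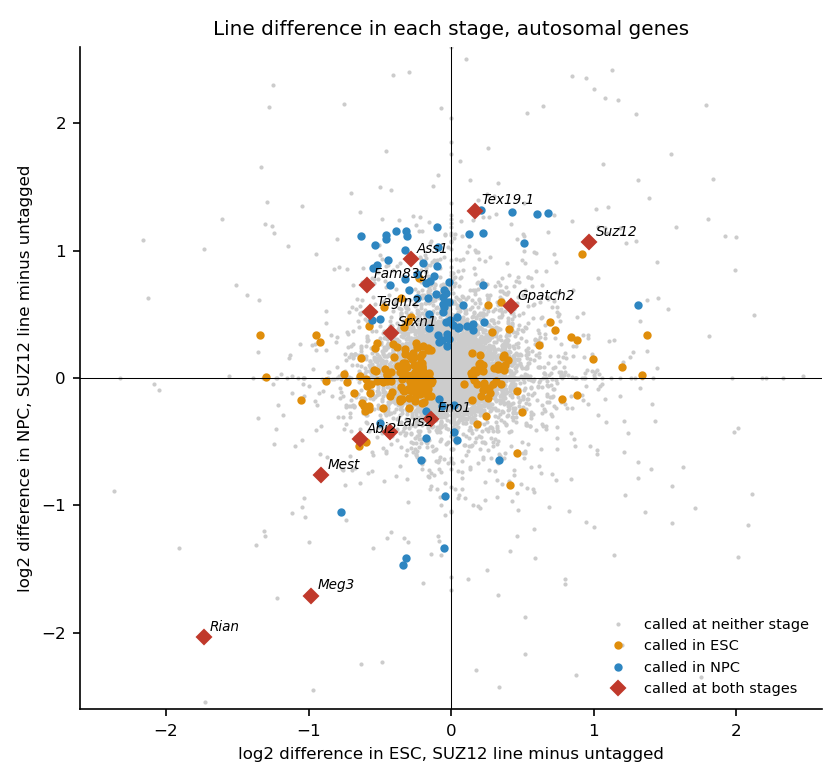
Log2 difference between the SUZ12-degron and untagged lines in ESC (horizontal) and NPC (vertical) for 12844 autosomal genes tested at both stages, each point 1 gene. Most called genes lie along 1 axis only, 9 of the 13 drawn genes called at both stages (red diamonds; 1 of the 14 is not drawn) lie in the quadrants of equal sign, and 4 lie at the upper left. The 21 of these genes beyond 2.6 on either axis are not drawn.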

How the data were processed

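The series holds 47 strand-specific libraries of polyadenylated mouse RNA. The authors deposited TPM by gene symbol for each. STAR 2.6.1d and mm10 are named in the submitters' processing notes; which annotation and counting tool were used is not given in the sources used here. Coordinates come from GENCODE M21 on GRCm38 (mm10), by symbol. Whole reads were recovered from the TPM steps for 100% of 27296 genes above 0, within 0.001 of a whole number; their sums give the depth. Mitochondrially encoded genes were not analysed here.

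The test was limma 3.58.1 (R 4.3.3; moderated with trend and robust settings) on log2(TPM + 0.5). Each stage had 1 fit with all its groups, over genes that reached 1 TPM in 2 libraries or more. The scale understates differences of low genes. A gene was called at a two-sided Benjamini-Hochberg adjusted p under 0.05 over all genes tested, and every adjusted p is limma's. The stage difference is (degron minus untagged in ESC) minus (the same in NPC), from 1 fit to all 47 libraries. The series design states biological replicates. In simulated data the fit recovered 94% (ESC) and 93% (NPC) of 2-fold changes (100 genes, beside 100 changed 4-fold) and made 12 and 15 false calls. Changes below 2-fold were not simulated, and of the calls in the data 14 of 249 in ESC and 43 of 134 in NPC reached 2-fold. Noise was drawn independently for each gene, so shifts shared by a whole library were not simulated either.

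Gene lists were written from general knowledge; the members, lists and comparisons were chosen with earlier results of these data known. Named genes are those called at both stages with 1 sign, for each stage the 5 largest rises and falls also called in the stage difference at 5 TPM or more, called list members and the Polycomb genes, with exceptions marked in the text; a few are not reported here or drawn and stay in every fit and count. Alternatives were pseudocounts of 0.1 and 1, no filter, a filter of 5 TPM in 3 libraries, a fit restricted to the compared groups, median-of-ratios scaling, a replicate block, voom on recovered reads and leaving out each library. Promoter sequences are RefSeq's for GRCm38.p6.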

Additional observations from a re-analysis of the deposited data

Results flagged for a closer look

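For 17 named genes flagged here the difference between the SUZ12-degron and untagged lines itself differed between the stages (limma contrast over all libraries, ESC minus NPC, log2). The same held for other named genes given above, among them Cbx7, Krt7, Krt8, Krt18, Tagln2 and Ass1. The 17 genes were selected for passing that test, so the values describe them. Of genes with a larger rise in ESC, the contrast was 0.76 for Olig2, 0.34 for Id3, 0.30 for Anapc11 (a subunit of the anaphase-promoting complex), 0.32 for Vim (vimentin) and 0.35 for Hmgcs1. Vim had 279 ± 13.2 and 327 ± 6.14 TPM in untagged and degron ESC and 2990 ± 13.6 and 2799 ± 37.8 in NPC (SD, n = 3 and 3). The order of its means was opposite at the stages, but the NPC difference was not called (limma, -0.09, adjusted p 0.388).

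Of genes that were lower in degron ESC, the contrast was -1.68 for Peg10, -1.21 for Bhlhe40, -0.79 for Pou6f1 and -0.59 for Smad3. Peg10 was called lower in ESC, while in NPC it had 195 ± 20.6 and 246 ± 17.2 TPM (SD, n = 3 and 3; adjusted p 0.052).

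Of genes that were higher in degron NPC, it was -1.15 for Tex19.1, -1.11 for Serpinb9b, -1.16 for Cdh5 and -1.29 for Phlda2. Cdh5, the cadherin of vascular endothelium, had 3.93, 3.52 and 4.45 TPM in untagged and 11.0, 9.25 and 8.95 in degron NPC, and was near 0 in ESC.

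Of genes that were lower in degron NPC, it was 1.09 for Lefty1, 1.33 for Hoxb8, 0.98 for Nudt17 and 0.53 for Pou5f1. Hoxb8 was at 0 to 0.172 TPM in every ESC library of both lines, so its contrast rests on NPC.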

How the results depend on the processing

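Suz12 was called at both stages under every alternative, and no named result turned its direction past the threshold. The counts of called genes moved more. With voom on recovered reads they were 569 in ESC, 340 in NPC and 236 for the stage difference, beside 249, 134 and 153; with a fit to the compared groups alone the ESC count was 139 and the number called at both stages 4 (Suz12, Mest, Rian and Abi2) in place of 10. Leaving out 1 library gave 67 to 147 in ESC, 81 to 101 in NPC, 87 to 141 for the stage difference and 5 to 8 at both stages; the genes then lost include Abi2, Eno1, Gpatch2, Lars2, Meg3 and Tex19.1, while Suz12, Mest and Rian stayed. With no filter on low values 7 genes remained, and with voom 15 were called, 9 of them among the 10. Within 5 Mb of Suz12, in place of 1 Mb, 2 genes were called in NPC in place of 0.

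Any pairing of the libraries by their shared replicate numbers was weak. Deviations of same-numbered libraries correlated at 0.061, 0.032 and 0.058 in ESC and 0.021, -0.009 and 0.045 in NPC. Those of differently numbered libraries correlated at -0.053 to -0.009 in ESC and at -0.044 to 0.022 in NPC. With a replicate block 258 genes were called in ESC, 187 in NPC and 211 for the stage difference, and the 10 genes called at both stages were the same. Each ESC library had its highest such correlation with the library of its own number; in NPC this did not hold for degron replicate 2 or for untagged replicates 1 and 2.

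Depth limits the lowest genes: Meg3 and Rian in ESC rest on 10 to 68 reads per group, and the deeper degron ESC libraries do not overlap the untagged ones in depth. The lines differ by tag and by whatever else arose in making them, which cannot be told apart, and 1 line per group was sequenced.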
